A study of Mus musculus with 106 samples.

Results

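Foxa2 binding in wild-type mouse liver was compared between animals given GW4064, a synthetic agonist of the bile acid receptor FXR, and animals given vehicle. The comparison rests on 2 of the 106 samples of a series on liver with and without Foxa2, namely the Foxa2 chromatin immunoprecipitation (ChIP-seq) libraries labelled GW4064 and GW4064-Veh. Both are from WT liver of mice aged 8 to 12 weeks, taken 4 h after oral gavage per the sample labels, where the series text speaks of injection. Their treatment text also names T09 (T0901317), an LXR agonist that the titles give to other samples. The Foxa2 mutant of the series enters below through an accessibility list and through its FXR, LXR and PPAR peak lists. Those peak lists serve only for overlap shares and for regions held by lists of every antibody. The LXR and PPAR samples, WT and mutant, are labelled with an age of 3 months. The members are all 22666 sites of the GW4064 list and all 7306 sites of the vehicle list, out of 440564 peaks in the 27 peak lists of the series. Each group has 1 library and 1 list, so no value below has a replicate error and none was tested. The series text gives 3 replicates for Foxa2 ChIP, and whether the libraries of this experiment pool several livers is not stated in their labels.

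FOXA2 is a forkhead transcription factor that can bind its motif on nucleosomal DNA and is required for much of the hepatocyte gene programme. FXR, encoded by Nr1h4, pairs with RXR on inverted repeats of AGGTCA and is activated by bile acids. In liver it is known for inducing Nr0b2 (the corepressor SHP) and the bile salt export pump Abcb11, and for lowering bile acid synthesis through Cyp7a1 and Cyp8b1. The question of the comparison is where FOXA2 was found on chromatin with and without the FXR ligand.

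A site of the GW4064 list with no base in common with the vehicle list is called gained, a site of the vehicle list with no base in common with the GW4064 list is called lost, and the others are sites of both lists. These words describe listing by the peak caller and not a tested change. Entry gives the place of a site in its list, counted from 1, and the lists hold positions alone with no height. What sets the order of a list is not explained, and a best entry is only the earliest one. Coordinates are mm10.

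Promoter sequence under 9 of the sites is printed as examples and does not stand for either class. Over all promoter windows 50% of those with a site of both lists and 22.6% of those with a gained site held a forkhead motif. Each line gives the part of a GW4064 site that lies in the 250 bases before a RefSeq gene start (GRCm38.p6), 5′ to 3′ along the gene. Capitals mark the forkhead motifs TGTTTAC and TATTTAC and the nuclear receptor hexamer AGGTCA, on either strand. The first 3 promoters, of Apoa2 (an HDL apolipoprotein), Fgb (the fibrinogen beta chain) and Klf9 (a Krüppel-like factor), were sites of both lists and hold a forkhead motif. The promoter of Nr1i2 (the xenobiotic receptor PXR) was gained and also holds one. The remaining 5, of Hpx (the haem carrier hemopexin), Abcb11, C3 (the central complement component), Alb (albumin) and Apob (the LDL apolipoprotein), were gained. They hold no such forkhead letters in the part printed, which need not be the whole site. Except for Fgb, Nr1i2, Hpx and Abcb11 they were chosen after their values were seen.
Apoa2 (chr1:171224853-171225053, plus strand): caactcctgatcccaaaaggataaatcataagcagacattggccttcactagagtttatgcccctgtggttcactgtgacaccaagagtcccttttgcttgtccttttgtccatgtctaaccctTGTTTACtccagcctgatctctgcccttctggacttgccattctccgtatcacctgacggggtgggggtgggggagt
Fgb (chr3:83049864-83050100, minus strand): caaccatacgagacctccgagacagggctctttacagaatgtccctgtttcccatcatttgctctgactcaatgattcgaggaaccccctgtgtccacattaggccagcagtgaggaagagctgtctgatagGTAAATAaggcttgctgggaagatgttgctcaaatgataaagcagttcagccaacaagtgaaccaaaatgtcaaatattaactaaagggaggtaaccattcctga
Klf9 (chr19:23141010-23141225, plus strand): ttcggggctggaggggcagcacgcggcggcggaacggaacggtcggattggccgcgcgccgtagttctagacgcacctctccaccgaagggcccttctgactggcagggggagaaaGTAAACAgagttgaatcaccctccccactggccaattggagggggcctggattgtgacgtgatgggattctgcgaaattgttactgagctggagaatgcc
Nr1i2 (chr16:38294825-38294976, minus strand): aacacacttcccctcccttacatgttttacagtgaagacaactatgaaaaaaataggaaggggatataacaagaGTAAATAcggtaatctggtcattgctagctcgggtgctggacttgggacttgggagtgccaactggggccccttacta
Hpx (chr7:105600117-105600331, minus strand): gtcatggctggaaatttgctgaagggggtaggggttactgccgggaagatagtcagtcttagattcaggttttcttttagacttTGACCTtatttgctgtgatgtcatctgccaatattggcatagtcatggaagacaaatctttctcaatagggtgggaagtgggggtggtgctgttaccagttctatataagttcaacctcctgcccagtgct
Abcb11 (chr2:69342617-69342701, minus strand): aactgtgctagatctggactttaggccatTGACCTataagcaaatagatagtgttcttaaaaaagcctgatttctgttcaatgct
C3 (chr17:57228170-57228386, minus strand): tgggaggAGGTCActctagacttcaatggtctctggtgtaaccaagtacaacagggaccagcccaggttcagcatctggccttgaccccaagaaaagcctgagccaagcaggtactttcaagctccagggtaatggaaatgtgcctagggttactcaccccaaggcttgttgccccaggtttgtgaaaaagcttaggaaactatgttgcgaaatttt
Alb (chr5:90460729-90460843, plus strand): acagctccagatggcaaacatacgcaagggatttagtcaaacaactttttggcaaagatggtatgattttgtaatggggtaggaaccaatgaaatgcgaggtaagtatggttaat
Apob (chr12:7977485-7977676, plus strand): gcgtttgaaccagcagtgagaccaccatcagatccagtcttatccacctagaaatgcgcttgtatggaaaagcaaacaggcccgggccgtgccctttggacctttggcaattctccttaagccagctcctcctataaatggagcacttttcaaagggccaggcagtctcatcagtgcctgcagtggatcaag

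The GW4064 list was longer, and most of its sites had no counterpart with vehicle. Of the 22666 GW4064 sites, 17962 (79.2%) were gained and 4704 were in both lists, and of the 7306 vehicle sites 2589 (35.4%) were lost. The GW4064 sites covered 3205 kb and the vehicle sites 1464 kb. Few of the first entries were among them: 1 of the first 500 GW4064 sites was gained and 2 of the first 500 vehicle sites were lost. Taking the first 7306 entries of either list, the length of the shorter, 3196 GW4064 sites (43.7%) were gained and 3177 vehicle sites (43.5%) were lost, so the numbers gained and lost were then close. These are called lists of equal length below.

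The share of sites found in the opposite list fell steeply along each list, though not at every step. In 10 equal stretches of the GW4064 list, 91.9% of entries 1 to 2266, 56.2% of entries 2267 to 4533 and 29.0% of entries 4534 to 6799 were found with vehicle, and from entry 13600 on the share lay between 1.15% and 2.82%. In the vehicle list 99.7% of entries 1 to 730, 99.2% of entries 731 to 1461 and 73.3% of entries 2923 to 3653 were found with GW4064, and 14.9% from entry 6576 on. The vehicle list rose from 28.4% in entries 5115 to 5844 to 35.4% in entries 5845 to 6575. The lists hold no height, and width was mostly smaller at later entries, with a Spearman correlation across sites of -0.73 in the GW4064 list and -0.75 in the vehicle list. Median width in the GW4064 list rose from 16 bp in entries 13600 to 15866 to 81 bp in entries 15867 to 18132.

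**Figure D1:**
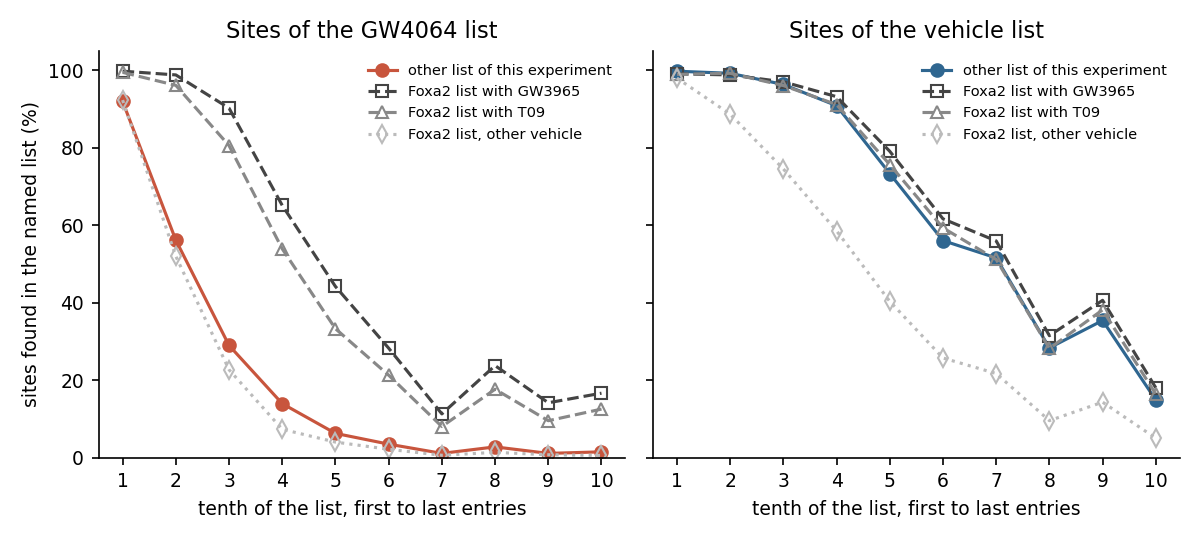
Percent of Foxa2 sites found in another Foxa2 list (at least 1 shared base), in 10 equal stretches of the list in entry order, for the GW4064 list on the left and the vehicle list on the right. Filled circles are the opposite list of the same experiment, and open marks are the 3 Foxa2 lists of the LXR agonist experiment. In the GW4064 list 91.9% of the first stretch and 1.54% of the last were found with vehicle.

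Gained sites were narrow and late. Their median width was 90 bp, against 234 bp for GW4064 sites of both lists and 127 bp for lost sites, and 3526 of them (19.6%) were 20 bp or less, against 17 sites of both lists and 28 lost sites. The first gained site was entry 497 of the GW4064 list and their median entry was 13531.5, whereas sites of both lists had a median entry of 2648.5. The first lost site was entry 152 of the vehicle list and the median lost entry was 5586. At the 4704 shared places the GW4064 site was the wider in 3516 (74.7%), with a median of 234 bp with GW4064 and 195 bp with vehicle and a median difference of 33 bp. The centres of the paired sites lay a median of 16.5 bp apart, and 18 GW4064 sites of both lists were shared by 10 bases or fewer. Few gained sites lay beside a vehicle site: 230 (1.28%) were within 500 bp of one, and the median gap to the nearest vehicle site was 85889.5 bp. For lost sites 66 (2.55%) lay within 500 bp of a GW4064 site, with a median gap of 35497 bp.

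The 3 Foxa2 lists of the LXR agonist experiment, from WT liver with GW3965, T09 or their own vehicle, were not used to form the classes. Gained sites were found with GW3965 in 36.5% of cases, with T09 in 29.6% and with that vehicle in 5.73%. Sites of both lists were found there in 97.8%, 95.5% and 66.8% of cases, and lost sites in 12.2%, 10.6% and 1.39%. In none of the 3 lists stood 10925 gained sites (60.8%, median width 45 bp), 57 sites of both lists and 2203 lost sites (85.1%). A further 3869 gained sites (21.5%, median width 160 bp) were present with GW3965 and T09 and absent from both vehicle lists. The labels give 3 replicates in each file of those lists, and their site numbers were 21245, 25318 and 4348.

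Among gained sites these shares went with entry. Of the 124 gained sites among entries 1 to 2000, 124 were found with GW3965 and 98 (79.0%) with the vehicle of the LXR agonist experiment. Of the 12355 gained sites from entry 10001 on, 19.9% were found with GW3965 and 1.04% with that vehicle. The 311 sites of both lists in the same late entries were found with GW3965 in 85.5% of cases. Among entries 2001 to 5000, 96.9% of the 1346 gained sites and 99.6% of the 1654 sites of both lists were found with GW3965, against 34.6% and 63.8% with that vehicle. Lost sites in entries 2001 to 5000 of the vehicle list, 911 in number, were found with GW3965 in 19.9% of cases.

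The first 10 gained sites lay in or nearest to Antxr1, Mid1, Fry, Zfp213, Pde4d, Gm38457, Insig2, Akr1d1, Etfa and Gas7. The Antxr1 site, in the gene of an anthrax toxin receptor, was at 6:87248216-87248536, 321 bp wide at entry 497. The Mid1 site, 882 bp wide at entry 525, lay in a region held by lists of every antibody and on FXR peaks of both arms. The Insig2 site, at 1:121329496-121329740 and entry 674, lay in the gene of a protein that retains the SREBP complex in the endoplasmic reticulum. Insig2 had 3 more gained sites, at entries 5309, 5379 and 11486, and none with vehicle. The Akr1d1 site, at 6:37618997-37619299 and entry 678, lay 44227 bp from the gene of the 5-beta-reductase of bile acid synthesis. All 10 were also listed with GW3965 and with T09, and only the Fry and Akr1d1 sites were absent from the vehicle list of the LXR agonist experiment. Later gained sites that both LXR agonists also had and neither vehicle had included those near Arid2 (entry 1057), Sgk1 (entry 1176, 1778 bp from this serum- and glucocorticoid-induced kinase gene), Fgb (entry 1448) and Klf3 (entry 1595), chosen after their values were seen.

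Sites of both lists opened either list. Entry 1 of each was a 5967 bp (GW4064) and 5973 bp (vehicle) stretch at 17:39842937-39848903. It lay 104600 bp from the nearest protein-coding gene, Esp38, in a region that lists of all 4 antibodies (Foxa2, FXR, LXR, PPAR) held. Genes of other kinds were not searched. Entries 2, 3 and 4 with GW4064, in or near Setd4, Urb1 and Irf2bp2, were entries 5, 9 and 11 with vehicle. The Fga site 5541 bp from this fibrinogen alpha chain gene was entry 8 with GW4064 and 33 with vehicle, and a site in Lifr, the leukemia inhibitory factor receptor gene, was entry 9 with GW4064 and 14 with vehicle. Sites in regions of all 4 antibodies, 102 regions of 389.5 kb, numbered 36 gained, 58 in both lists and 19 lost.

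Of the first 10 lost sites 6 lay outside protein-coding genes. The first, at 9:3001976-3002684 (entry 152 with vehicle) and 9:3004410-3005281 (entry 463), lay in the first 3.5 Mb of chromosome 9, 332901 and 330385 bp from Alkbh8. The next, nearest to Lrrc4c (entry 1047) and Olfr161 (entry 1236), were 1033464 and 476007 bp from them. A 1159 bp site at 4:61969306-61970464 (entry 1241) lay 41452 bp from the major urinary protein gene Mup20. Within genes, lost sites were listed in Cdk5rap2 (entry 1299), Srd5a1 (a steroid 5-alpha-reductase gene, 13:69588335-69588557, entry 1326), Gm9733 (entry 1523) and Zyg11a (entry 1603). The second Alkbh8 site and one nearest to Fam171a1 (entry 1285) lay in regions of all 4 antibodies. Without those regions the number of lost sites was 2570, and without the first 3.5 Mb of each chromosome 2574.

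By chromosome the GW4064 list held 2.61 to 3.51 times the sites of the vehicle list on 18 autosomes and X, 4.80 times on chromosome 17 (571 and 119 sites) and 7 against 1 on Y. Chromosome 17 also had the lowest share of lost vehicle sites outside Y, 20 of 119 or 16.8%, where the other autosomes and X had 29.4% to 42.3%.

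FXR sites of the same experiment met few Foxa2 sites of any class. The WT FXR list with GW4064 overlapped 171 gained sites (0.952%), 218 sites of both lists (4.63%) and 25 lost sites (0.966%). Of these, 22 gained sites, 47 sites of both lists and 14 lost sites lay in regions of all 4 antibodies. Without those regions the shares were 0.831%, 3.68% and 0.428%. On FXR peaks that the FXR vehicle list did not hold lay 117 gained sites, 112 sites of both lists and 16 lost sites. At matched entries the gained share was the lower in each of 4 bands. It was 2.42%, against 6.34% of sites of both lists, in entries 1 to 2000, and 2.08% against 3.39% in entries 2001 to 5000. In entries 5001 to 10000 it was 1.74% against 3.36%, and from entry 10001 on 0.550% against 4.50%, or 68 of 12355 gained sites and 14 of 311 sites of both lists. Chosen after their values were seen, gained sites on FXR peaks included those in Mafg (a small Maf factor, entry 2082), C8a (a complement subunit, entry 2885), R3hcc1l (entry 2753) and Rhobtb1 (entry 3153), and near Qsox1 (entry 853) and Amy2a1 (a pancreatic amylase gene, entry 2828). Of these, the Mafg peak was in the FXR list with vehicle as well, and those of C8a, R3hcc1l, Rhobtb1, Qsox1 and Amy2a1 were not. Among equally early entries, gained sites in or nearest to Mid1 (entry 525), Stk32a (1142), Ercc4 (2270) and Ofcc1 (3088) met FXR peaks of both arms. Those nearest to Irs2 (2641) and Cfap100 (3102) met FXR peaks with GW4064 alone.

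Regions of gained accessibility, called by the authors with ligand over vehicle, held 838 gained sites (4.67%), 485 sites of both lists (10.3%) and 103 lost sites (3.98%) for GW4064 in WT. In the Foxa2-KO liver, Foxa2loxP/loxP;Alfp.Cre mice that delete Foxa2 in the liver lineage, the GW4064 regions held 2.48%, 2.95% and 2.01% of the same classes. The regions of WT with GW3965, an agonist of another receptor, held 10.7%, 25.9% and 5.18%, more of each class than those with GW4064. Those of WT with T09, the other LXR agonist, held 3.27%, 4.78% and 1.74%, fewer of each class than those with GW4064. Overlaps with the LXR and PPAR lists of WT and mutant liver were at most 1.53% for any class and list. Sites of both lists had the largest share in each of the 3 Foxa2, 4 accessibility and 2 WT FXR lists, gained sites the next in the Foxa2 and accessibility lists, and lost sites the smallest there. These accessibility lists are ligand over vehicle, so they hold no accessible region that was open alike in both arms.

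**Figure D2:**
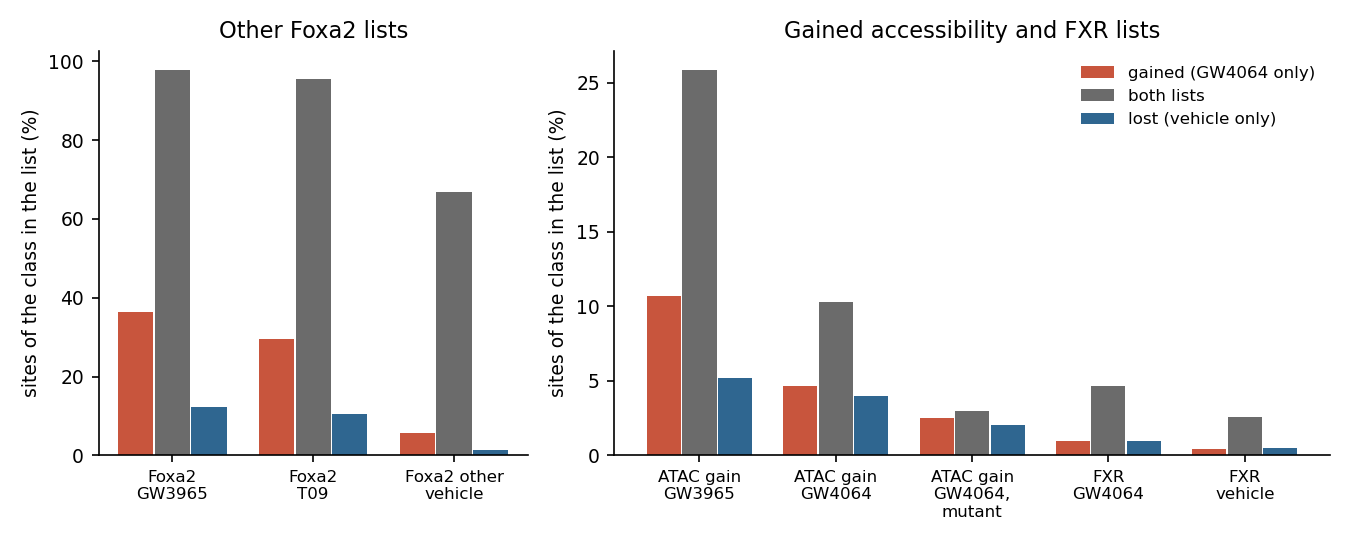
Percent of gained, both-list and lost Foxa2 sites that overlap each named list by at least 1 base, with the other Foxa2 lists on the left and accessibility and FXR lists on the right, on separate scales. The middle bar, sites of both lists, is the tallest in each group, from 97.8% (Foxa2 with GW3965) to 2.57% (FXR with vehicle).

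Genes were counted as near a site whose centre lay inside the gene or at most 10 kb away. Over all 21887 protein-coding genes, 38.8% had a GW4064 site and 17.8% a vehicle site. A gained site stood near 34.2%, a lost site near 6.81%, a GW4064 site with no vehicle site near 23.4% (5119 genes) and a vehicle site with no GW4064 site near 2.35% (514 genes). With lists of equal length these last numbers were 1257 and 1134 genes. Each list of genes below is read against those shares, and all lists were drawn up with earlier results of these data known.

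Of 16 known FXR targets, 14 had a GW4064 site, 11 a vehicle site and 14 a gained site, and the median was 2 gained sites a gene, where the median over all genes was 0. The Foxa2 sites of Abcc2, the canalicular multidrug resistance pump, were the highest in the list: 19:43811441-43811751 was entry 14 with GW4064 and entry 119 with vehicle, and 19:43792582-43792857 was entry 408 with GW4064 and 90 with vehicle. Abcc2 had 1 gained site, at entry 10970. In Osgin1, an oxidative stress response gene, sites of both lists stood at entries 672 and 1530 with GW4064 and 487 and 1698 with vehicle, and a gained site at 8:119434663-119434847 (entry 7209) was on an FXR peak absent with vehicle.

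At Nr0b2 a site of both lists 408 bp before the start (4:133552795-133553141) was 347 bp wide at entry 1848 with GW4064 and 150 bp wide at entry 3709 with vehicle. It lay on FXR peaks of both arms. Nr0b2 had 2 gained sites, an 11 bp site at entry 16760 and a 190 bp site 10081 bp downstream of the start at entry 4969. The site at entry 4969 was also listed with GW3965, T09 and the vehicle of the LXR agonist experiment.

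Abcb11 had gained sites at its start and no site of both lists. A 163 bp site centred 4 bp before the start (2:69342539-69342701, entry 16005) was on an FXR peak of the GW4064 list that the FXR vehicle list did not hold, and a 181 bp site lay 450 bp before the start (entry 9105). Both were in regions of accessibility gained with GW4064 in WT and were listed with GW3965. Inside the gene an 18 bp gained site (2:69263517-69263534, entry 13892) stood beside a lost site of 134 bp (2:69263677-69263810, entry 6139 with vehicle).

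Of the other FXR targets, Mafg, Pdk4 (a pyruvate dehydrogenase kinase), Sdc1 (syndecan 1) and Pltp (the phospholipid transfer protein) had GW4064 sites and no vehicle site. The best of these were entries 2082, 3812, 8452 and 10064, and 4 of 16 or 25% is near the 23.4% of all genes. With lists of equal length 2 of 16 had GW4064 sites alone and 2 vehicle sites alone, against 5.74% and 5.18% of all genes. Slc51b, the beta chain of the basolateral bile acid exporter, went the other way, with 1 vehicle site (9:65409278-65409381, entry 5069) and none with GW4064. Slc51a, the alpha chain, had no site in either list. Abcb4, the phospholipid flippase of bile, had 5 gained sites and 2 sites of both lists, the best at entry 2193 with GW4064 and 1081 with vehicle. The gained Abcb4 site at 5:8886045-8886176 (entry 17192) lay on an FXR peak listed with GW4064 alone. In Scarb1, the HDL receptor gene, 3 gained sites and 2 sites of both lists were listed, and at entry 14698 a 3 bp GW4064 site was counted in both lists through a 101 bp vehicle site.

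**Figure D3:**
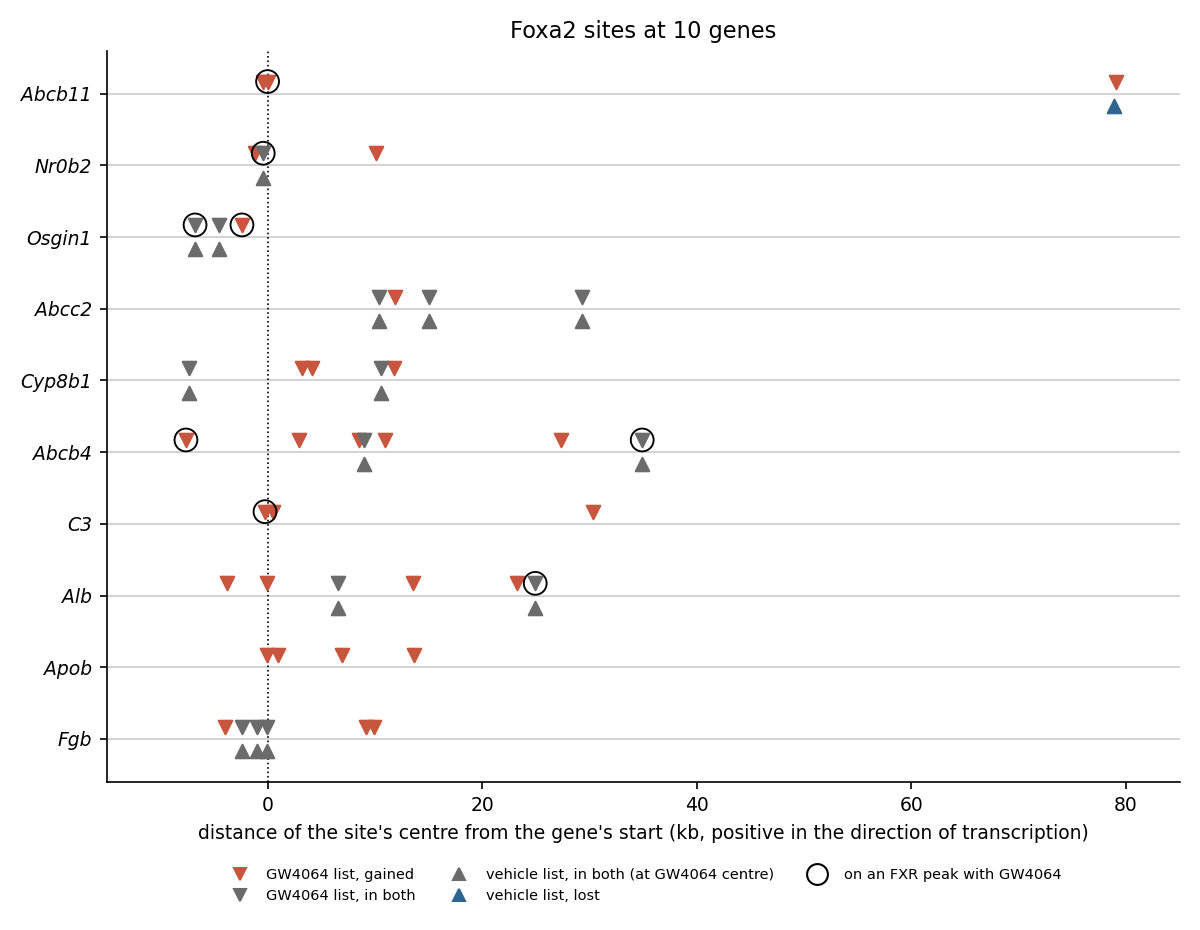
Foxa2 sites at 10 genes by distance of the site centre from the gene start in kb, with GW4064 sites above each line (red gained, grey in both lists) and vehicle sites below it (grey in both lists, drawn at the GW4064 centre, and blue lost). Rings mark GW4064 sites on an FXR peak with GW4064. Abcb11, C3 and Apob show red marks at the start and none in grey, and Fgb and Nr0b2 show grey marks there. The genes were chosen after their values were seen.

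Among 13 genes of bile acid synthesis, 12 had a GW4064 site, 8 a vehicle site and 11 a gained site. GW4064 sites alone stood near 4 (30.8%, against 23.4% of all genes). Cyp8b1, the sterol 12-alpha-hydroxylase, had a site of both lists at 9:121905600-121905930, entry 282 with GW4064 and 195 with vehicle, and had 3 gained sites, the best at entry 2592. Cyp7a1, the rate-limiting enzyme, had 1 gained site of 131 bp 3037 bp from the gene (4:6278604-6278734, entry 6713) and no vehicle site. Cyp7b1, the oxysterol 7-alpha-hydroxylase of the alternative pathway, had 9 gained sites and no vehicle site, the most of these 13 genes. They were 18 to 273 bp wide at entries 2133 to 21566, and 5 of the 9 were also listed with GW3965. The best, at 3:18166025-18166297, was in the vehicle list of the LXR agonist experiment too. Hsd17b4 and Akr1d1 were the other genes with GW4064 sites alone, at entries 14874 and 15483, and Amacr (a racemase) had none in either list. Cyp27a1 (sterol 27-hydroxylase, entries 942 with GW4064 and 1436 with vehicle), Acox2 (664 and 1579), Scp2 (608 and 739), Slc27a5 (922 and 793) and Baat (2681 and 2836) held sites of both lists.

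Of 14 bile acid and sterol transporters, 11 had a GW4064 site and 11 a vehicle site, and 8 had a gained site. Abcc4 (entries 208 with GW4064 and 617 with vehicle), Atp8b1 (463 and 331) and the sterol exporter pair Abcg5 and Abcg8, which shared 1 site (352 and 235), held sites of both lists. Slc10a1, the hepatocyte bile acid importer NTCP, had 1 site of both lists, entry 1303 with GW4064 and 6245 with vehicle. Slco1b2, an organic anion importer, had 2 gained sites (best entry 1761) and 1 lost site (entry 6743) and no site of both lists. Lost sites stood near 5 of 14 members, Abcc4, Atp8b1, Slco1b2, Abcb11 and Slc51b, where the share over all genes was 6.81%. Slco1a4 had only a gained site, at entry 5334.

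Receptor genes were near Foxa2 sites of both lists. Of 19 nuclear receptor genes 15 had a GW4064 site and 13 a vehicle site. GW4064 sites alone stood near 2 (10.5%, against 23.4% of all genes), Nr1d1 (entry 9196) and Nr1h3, the LXR-alpha gene (entry 17634). Nr1i2 had a 736 bp GW4064 site at 16:38287320-38288055, entry 146, over a 202 bp vehicle site, entry 1601. Its gained sites numbered 4, of which the promoter site printed above was entry 6382. Nr1h4 held a site of both lists at 10:89470634-89470960, entry 699 with GW4064 and 853 with vehicle, and 3 gained sites (best entry 4473). Esr1 (entries 214 with GW4064 and 116 with vehicle), Nr3c1, the glucocorticoid receptor gene (226 and 138), and Rora (476 and 375) were at the head of both lists.

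Of 20 hepatocyte transcription factor genes 18 had a GW4064 site and 14 a vehicle site. Hnf4a held a site of both lists at entry 689 with GW4064 and 2284 with vehicle and 3 gained sites. Foxa2 itself held 3 sites of both lists and no gained site. Its paralogues differed in listing, with 2 gained sites near Foxa1 (best entry 7303) and 3 near Foxa3 (best entry 4958) and no vehicle site at either. All 5 of these gained sites were found with GW3965. Onecut1 (entry 11133) and Atf5 (entry 7142) were also without a vehicle site. Tbx3, Foxo1 and Prox1 had sites of both lists, best entries 641, 821 and 1033 with GW4064 and 2128, 982 and 987 with vehicle.

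Of the 25 lists of genes, complement had the widest gap between GW4064 and vehicle sites at full list length. Of 18 members, 17 had a GW4064 site and 5 a vehicle site, so 12 (66.7%, against 23.4% of all genes) had GW4064 sites alone. Among these were C8a, C3, C4b, C1ra, C1s1, Mbl2, Masp2, Cfi, C2, Cfb and C6, with best entries between 2885 and 19970. C1ra and C1s1 share the site at entry 9054, and C2 and Cfb the site at entry 16802. C3 had a 420 bp site 244 bp before its start (17:57228170-57228589, entry 3603) on FXR peaks of both arms, a 259 bp site 494 bp after the start (entry 5395) and an 11 bp site at entry 18722. C8a had gained sites at entries 2885, 3023 and 9480, all 3 listed with GW3965 and T09 and with neither vehicle. Hc, C9, C8b, Mbl1 and Masp1, which encode C5, membrane attack subunits and lectin pathway proteins, held sites of both lists. For Hc, C9, C8b and Mbl1 the best of these were entries 336, 538, 785 and 1270 with GW4064. The best GW4064 entry of Masp1, 3199, was a gained site. With lists of equal length, 4 of 18 complement genes (against 5.74% of all genes) had GW4064 sites alone and 0 (against 5.18%) vehicle sites alone. The gap was then wider for glucose metabolism, with 11 of 16 genes near a GW4064 site and 7 near a vehicle site, than for complement, with 9 and 5 of 18. With genes taken up to 50 kb from a site it was wider for lymphocyte markers (6 and 1 of 9) than for complement (18 and 10 of 18).

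Clotting and carrier genes were near Foxa2 sites in either arm. Of 19 clotting genes 18 had a GW4064 site, 17 a vehicle site and 1, F9 (entry 3472), GW4064 sites alone, and of 15 plasma carrier genes the numbers were 14, 13 and 1. That 1 was Hpx, whose 246 bp site 93 bp before the start stood at entry 1093 (7:105600086-105600331) and was present in all 3 lists of the LXR agonist experiment. Fgb held 3 sites of both lists within 2412 bp before its start, at entries 499, 601 and 760 with GW4064 and 412, 1633 and 954 with vehicle, and 3 gained sites. Alb held 2 sites of both lists and 4 gained sites, among them a 115 bp site 84 bp before the start (entry 8138) that GW3965 and T09 also had. Plg (plasminogen) and Ahsg (fetuin A) stood at entries 569 and 519 with GW4064 and 2359 and 425 with vehicle. F12 and Serpina1a had no site in either list.

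Acute phase genes had GW4064 sites in 15 of 17 cases and vehicle sites in 8, and 7 (41.2%, against 23.4% of all genes) had GW4064 sites alone. Among these 7, chosen after their values were seen, were Il6st (the gp130 receptor subunit, entry 4956), Itih4 (5838), Crp (10506), Stat3 (14884) and Saa1 (15722). With lists of equal length 2 of 17 had GW4064 sites alone (against 5.74% of all genes) and 0 vehicle sites alone (against 5.18%). Hp (haptoglobin) and Il6ra (the interleukin 6 receptor) held sites of both lists, entries 207 and 270 with GW4064 and 159 and 403 with vehicle.

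Lipid genes also differed between the lists, at later entries. Of 20 lipogenesis genes 18 had a GW4064 site, 8 a vehicle site and 10 (50%) GW4064 sites alone, and of 21 lipoprotein genes the numbers were 20, 12 and 8 (38.1%). The share with GW4064 sites alone over all genes was 23.4%. Apob had 4 gained sites, entries 2827, 4837, 5013 and 6485, and no vehicle site. All 4 lay in regions of accessibility gained with GW4064 in WT, and 3 of the 4 stood in the vehicle list of the LXR agonist experiment. Apoa1, Apoa4 and Apoc3, neighbours on chromosome 9, shared a gained site at entry 14379. Apoe and Apoc1 shared a site of both lists, 7:19700944-19701202, entry 480 with GW4064 and 163 with vehicle. Lpin1 (a phosphatidate phosphatase) stood at entry 211 with GW4064 and 748 with vehicle, and Srebf1, the lipogenic regulator SREBP1, had 1 gained site at entry 18021. Scd1, the stearoyl-CoA desaturase, had 1 gained site (entry 10648) and 1 lost site (entry 6049). Of 15 cholesterol synthesis genes 9 had a GW4064 site and 5 a vehicle site. Dhcr7, the 7-dehydrocholesterol reductase, had a lost site at entry 6670. At equal list lengths 2 of 20 lipogenesis and 2 of 21 lipoprotein genes had GW4064 sites alone, against 5.74% of all genes, and 2 and 1 had vehicle sites alone, against 5.18%.

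Of 24 fatty acid oxidation genes 21 had a GW4064 site and 13 a vehicle site, and of 16 genes of glucose metabolism 14 and 7. Pck1, the gluconeogenic PEPCK, had no vehicle site and 3 gained sites, of which a 178 bp site centred 71 bp after the start stood at entry 3876, and Fbp1 had 2 (best entry 6046). Cpt1a, the carnitine palmitoyltransferase, held sites of both lists, best entry 1308 with GW4064 and 2390 with vehicle, as did Tat, tyrosine aminotransferase (918 and 1586). G6pc had no site in either list. At equal list lengths 5 of 16 glucose genes and 5 of 24 oxidation genes had GW4064 sites alone, against 5.74% of all genes. Vehicle sites alone stood near 1 and 3 of them, against 5.18% of all genes. Of 21 urea cycle and amino acid genes 19 had a GW4064 site, 14 a vehicle site and 5 (23.8%, near the 23.4% of all genes) GW4064 sites alone. Cps1, the first enzyme of the cycle, stood at entry 347 with GW4064 and 527 with vehicle.

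Of 30 drug metabolism genes 28 had a GW4064 site, 19 a vehicle site and 9 (30%, against 23.4% of all genes) GW4064 sites alone. Cyp2f2 stood at entry 38 with GW4064 and 30 with vehicle, Cyp2c50 at 222 and 267, and Ugt1a1, the bilirubin glucuronosyltransferase, at 374 and 73. Of 18 clock genes 15 had a GW4064 site, 13 a vehicle site and 4 (22.2%, near the 23.4% of all genes) GW4064 sites alone. Vehicle sites alone stood near 2 (11.1%, against 2.35% of all genes), Dbp (entry 4722) and Usp2 (entry 6625). Of 12 iron genes 7 had a GW4064 site and 3 a vehicle site, and Hamp, encoding hepcidin, had none in either list.

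Hepatocyte markers were mostly near Foxa2 sites, and markers of Kupffer cells, stellate cells and lymphocytes mostly were not. Of 12 hepatocyte markers 11 had a GW4064 site and 9 a vehicle site. The counts were 1 and 0 of 12 for Kupffer cells, 2 and 0 of 12 for stellate cells and 1 and 0 of 9 for lymphocytes, all below the 38.8% and 17.8% of all genes. They were 4 and 3 of 10 for cholangiocytes and 7 and 5 of 12 for sinusoidal endothelium, where Stab2 stood at entry 400 with GW4064 and 248 with vehicle. Neuron markers had a GW4064 site in 5 of 12 cases and a vehicle site in 1, and all 6 gained sites there were at entry 4092 or later. GW4064 sites alone stood near 5 of these 12 (41.7%, against 23.4% of all genes). At equal list lengths 1 of 12 had GW4064 sites alone (against 5.74% of all genes) and 1 vehicle sites alone (against 5.18%). The defining markers Clec4f (Kupffer), Cd3e (lymphocyte), Krt19 (cholangiocyte) and Des (stellate) had no site in either list, and the part of other cell types in the gained class was not tested.

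**Figure D4:**
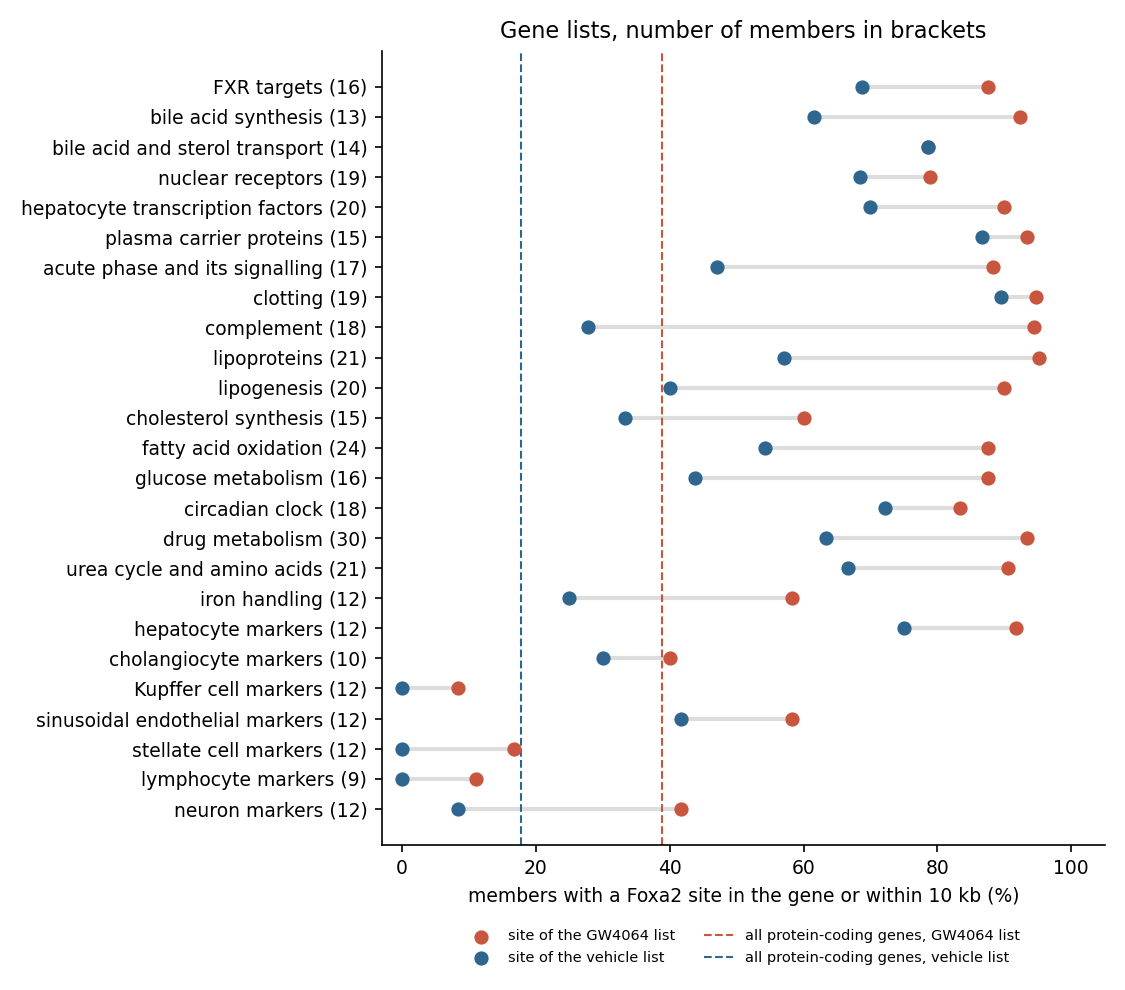
Percent of the members of 25 gene lists with a Foxa2 site inside the gene or at most 10 kb away, in red for the GW4064 list and in blue for the vehicle list, and for all protein-coding genes as dashed lines (38.8% and 17.8%). At full list length complement genes show the widest gap, 94.4% with GW4064 and 27.8% with vehicle, and transport genes none.

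Promoters were read from RefSeq windows of 300 bases, 250 before and 50 after each start, for 17492 genes. A window of 360 genes (2.06%) held a gained site and none of both lists, one of 182 genes (1.04%) a site of both lists, and one of 17 genes (0.0972%) a lost site. Of the 237 members of the pathway lists with a window, 35 had a gained promoter site, 25 one of both lists and 0 a lost one. The gained promoters included 9 of 29 drug metabolism genes (among them Cyp2e1, Cyp2f2 and Ugt2b1), 4 of 13 lipoprotein genes (Apoa5, Apoe, Apob and Lipc), 3 of 12 complement genes (C3, C6 and C8b) and 3 of 13 amino acid genes (Glul, Tdo2 and Hal). Promoters with sites of both lists included 6 of 13 carrier genes (Ahsg, Fetub, Serpina1b, Apoh, Ambp and Rbp4), 5 of 16 clotting genes and the bile acid genes Hsd3b7, Acox2 and Cyp2c70. At equal list lengths the windows of 122 genes held a gained site and those of 31 a lost one, with 16 and 2 pathway members, the 2 being Apoh and Hsd3b7.

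The forkhead letters were most frequent under sites of both lists. TGTTTAC or TATTTAC on either strand stood in 89 of 393 windows with a gained site (22.6%), in 96 of 192 with a site of both lists (50%), in 0 of 18 with a lost site and in 4.74% of 20660 windows with no Foxa2 site. With lists of equal length the counts were 48 of 131 gained windows (36.6%), 91 of 177 of both lists (51.4%) and 5 of 32 lost ones (15.6%). Over all 21263 windows the share was 5.47%, and a window could hold both motifs. Within the gained class, 85 of 314 windows whose site GW3965 or T09 also had held the letters (27.1%), against 4 of 79 whose site neither had (5.06%), close to windows with no site. By width it was 76 of 283 for gained sites of at least 100 bp (26.9%) and 13 of 110 for narrower ones (11.8%). AGGTCA stood in 16.3% of gained windows, 16.1% of those of both lists and 14.7% of windows with no Foxa2 site, and its inverted repeat with 1 base between the arms in 1 window of all. The motif was sought in the whole window and not only under the site.

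**Figure D5:**
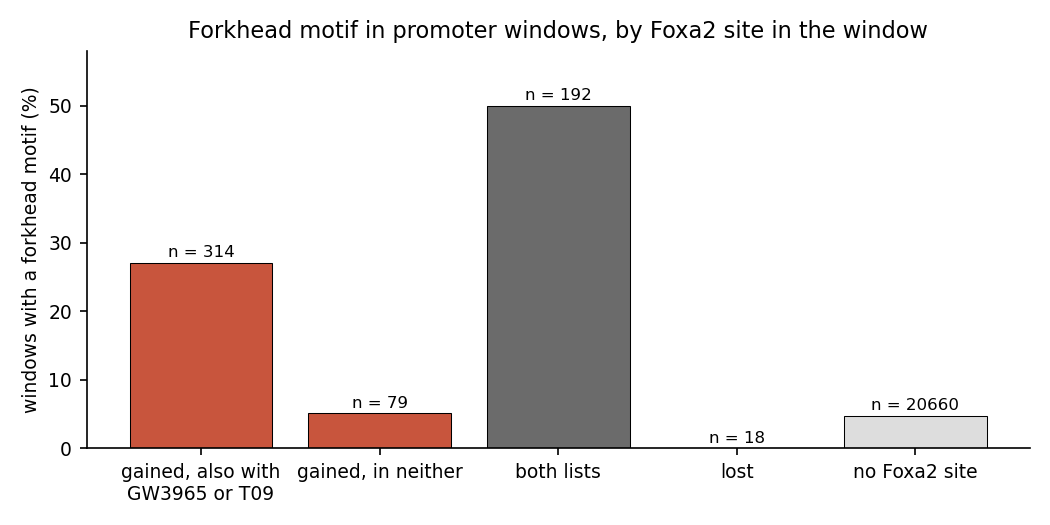
Percent of promoter windows that hold TGTTTAC or TATTTAC on either strand, by the Foxa2 site in the window, with the number of windows above each bar. Gained sites that GW3965 or T09 also had reach 27.1% and those that neither had 5.06%, beside 50% for sites of both lists and 4.74% for windows with no site.

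Sites lay mostly away from starts. Within 1 kb of a start were 4.85% of gained sites, 6.59% of sites of both lists and 2.87% of lost sites, and in a gene body 48.5%, 54.1% and 45.9%. At matched entries the order within 1 kb was not the same throughout, with 8.21% of gained sites and 6.97% of sites of both lists for entries 2001 to 5000, and 3.92% and 4.38% from entry 10001 on.

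Sites of the GW4064 list with gaps of at most 12500 bp formed 3554 chains of 2 or more, which held 35.9% of gained sites and 54.0% of sites of both lists. Of the chains 1823 held a site of both lists and 1731 gained sites alone, and 14.5% of gained sites stood in a chain with a site of both lists. At equal list lengths these shares in chains were 32.2% and 34.6%.

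The chain with most gained sites covered the Ugt1a cluster of glucuronosyltransferase genes (1:88206835-88301892), with 12 gained sites and 9 of both lists, 13 vehicle sites, and 12 FXR peaks with GW4064. The Ugt1a annotations overlap, so that these sites count for several of the genes. Nr5a2, the LRH-1 receptor gene that acts with SHP at bile acid genes, had a chain of 14 sites over 84.4 kb, 10 gained and 4 of both lists. Of its 11 gained sites in all, the best was 202 bp wide, 800 bp after the start (1:136959547-136959748, entry 3176), and was listed with GW3965 and T09 and with neither vehicle. Zmiz1 (9 gained, 3 of both lists), Zfp982 (8 and 1), Cyb5a (7 and 4) and Slc38a4 (7 and 4) also had chains. Chains of gained sites alone lay in an interval with no protein-coding gene at 3:106220574-106281599 (10 sites, best entry 6895, with 6 FXR peaks), in the histone cluster of chromosome 13 (7 sites, best entry 4417) and in Macrod2 (7 sites in 17.9 kb, best entry 5897, with 11 FXR peaks). Of the sites of the GW3965 list 6 lay in the histone interval and 0 in the Macrod2 interval.

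The genes with most gained sites were long ones. Grm7, Macrod2 and Cntnap2 had 17 each and Sox5 16, and the 38 genes with 10 or more had a median length of 605 kb, against 17.2 kb for all genes. Per 100 kb searched Grm7 had 1.80 and Cntnap2, an adhesion molecule gene of neurons, 0.752, where Stard13 had 3.41. Gene length thus moves with the count of gained sites, and its part in the counts by gene list was not tested.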

How the data were processed

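Foxa2 ChIP-seq of WT mouse liver was compared between 1 library with GW4064 and 1 with its vehicle. Per the labels, a Foxa2 antiserum was used and chromatin came from snap-frozen liver. Peaks were called with PeakSeq against input per the series text, reads were aligned to mm10, and BWA is named in the submitters' processing notes, with no version. The deposited values are positions of peaks (chromosome, start and end), with no height, fold or q, so depth per library is unknown and no counting interval can be given. The unit of these columns, as the authors deposited them, is a base position (other). Starts were read as 0-based and are printed 1-based. Entry number was used as place in the list, whose order is not explained. No column of per-sample values was left out.

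Lists were compared by at least 1 shared base. Genes were 21887 protein-coding RefSeq genes of GRCm38.p6, near a site if its centre lay inside the gene or at most 10 kb away. All 371 gene names of the 25 lists matched. Promoter windows were 21263, and starts of protein-coding genes on chromosome 18 were not analysed here. Chains used gaps of at most 12500 bp. Named genes were those nearest to the first 10 gained, 10 lost and 5 both-list sites, up to 20 members of the FXR and bile acid lists and up to 4 of each other list by best GW4064 entry, and those of the 10 chains with most gained sites. Others are said to be chosen later, and some members are not reported here. Members and lists were chosen with earlier results of these data known. The overlap step was tested on simulated lists of 7306 sites, where it found 10%, 50% and 80% for the same shares placed with 1 shared base, and 0% when these were moved 1 base apart. Python 3.11.15 with numpy 2.4.6, pandas 2.3.3 and matplotlib 3.10.9 was used. Alternatives were another overlap limit, list length, width, gene limit and chain gap, and, added after seeing the data, joined vehicle lists, support by the LXR agonist lists, removal of chromosome starts, bands of entries and FXR peaks of at least 100 bp. An alternative moved a share where it fell outside the 95% binomial interval of the main share, and a count where it differed from the main count by more than 1.5 times. That interval takes the sites of 1 library as independent draws and narrows with their number. Moved is therefore a label and not a test.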

Additional observations from a re-analysis of the deposited data

How the results depend on the processing

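No paired analysis was possible because each group has 1 library, and for the same reason no replicate could be left out. Against 17962 gained sites (79.2%) and 2589 lost (35.4%), equal list lengths gave 3196 (43.7%) gained and 43.5% lost, the first 500 sites 1 (0.2%) gained and 2 (0.4%) lost, and sites of at least 100 bp 8471 (65.4%) gained and 28.7% lost. Counting sites within 500 bp as shared gave 78.2% gained, joining the vehicle lists of both experiments 74.7%, and 7034 gained sites were also with GW3965 or T09 (the last alternatives chosen after seeing the data). The gained share found with GW3965 was 89.9% at equal lengths and 65.8% for sites of at least 100 bp, against 36.5%. The gained share on FXR peaks with GW4064, 0.952%, was 0.768% with 50% of the shorter site shared, 2.25% at equal lengths, 1.76% for sites of at least 100 bp and 0.796% for FXR peaks of at least 100 bp, and that in WT GW4064 accessibility, 4.67%, was 7.26% and 7.17% at equal lengths and for sites of at least 100 bp. Genes with a gained site, 7495, were 13231 at 50 kb and 2214 at equal lengths, where 1257 genes had GW4064 sites alone and 1134 vehicle sites alone. Chains, 3554, were 2342 with gaps of 5 kb and 1043 at equal lengths. Of the alternative values 181 stayed within the limits set for shares and counts and 96 moved. The equal lengths and the first 500 take fewer sites by construction, and for the rest the cause was not tested. The lists give no depth, so whether the longer GW4064 list goes with more reads cannot be told apart from more binding.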
